A study of Homo sapiens with 7 samples.

Results

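The microRNAs miR-26a, miR-26b, miR-30b and miR-30c, of the miR-26 and miR-30 families, were described in metastatic tumor cell lines. They were picked by the names of their assays, as families known to be abundant, and make up 4 of the 377 human microRNA assays on the card. The parental line, MDA-MB-435-GFP, is an established human tumor cell line that expresses green fluorescent protein and resistance to G418. It was injected into the tail vein of athymic female mice according to the methods of the study (the labels of the samples name the mammary fat pad), and lines were grown out of the lungs, purified with G418, and passed through mice again. The 3 L1-R2 lines (labelled MDA-MB-435-L1-GFP, Ol-like) descend from a visible lung metastasis and model oligometastatic spread, and the 4 L1Mic-R2 lines (labelled MDA-MB-435-L1Mic, Poly-like) descend from tumor cells in lung tissue free of visible metastases and model polymetastatic spread. The lines of the second round came from distinct lungs, but all lines of a group go back to a single line of the first round, so that a difference between the groups cannot be told apart from a difference between those founding lines. The question of the comparison is whether microRNA levels differ between oligometastatic and polymetastatic cells.

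MicroRNAs repress messenger RNAs that carry a match to their seed, the stretch from base 2 to base 8, so that members of a family with a common seed are held to share many targets. MiR-26a is known to repress the histone methyltransferase EZH2 and cyclins of the G1 phase, and the miR-30 family is known to repress SNAI1, a driver of epithelial to mesenchymal transition. Both families are widely described as tumor suppressive and as repressed by the oncogene MYC. The mature sequences below (RefSeq, GRCh38.p14) show how close the members are, with the seed in capitals. By name, 3 of the 4 members were matched to the 5p arm, and miR-30b had no entry in the sequences used.
miR-26a: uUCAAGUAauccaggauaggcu
miR-26b: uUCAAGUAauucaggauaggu
miR-30c: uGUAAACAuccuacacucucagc
MiR-26a and miR-26b share the seed UCAAGUA and 19 of the 21 positions that both have. Counted from 1 at the 5′ end, with the base of miR-26a first, they differ by C11U and C21U, and miR-26a is 1 base longer (22 against 21). Whether each assay also detects the other microRNA was not tested.

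The same mature miR-26a is made from 2 genes. One, MIR26A1, has its mature sequence on the plus strand at chr3:37969413-37969434, inside the bounds of the protein coding gene CTDSPL, and the other, MIR26A2, on the minus strand at chr12:57824658-57824679, inside CTDSP2. MiR-26b comes from MIR26B on the plus strand at chr2:218402657-218402677, inside CTDSP1. All 3 surrounding genes encode phosphatases that act on the tail of RNA polymerase II. MiR-30c also has 2 genes, MIR30C1 on the plus strand at chr1:40757300-40757322, inside NFYC, which encodes a subunit of a CCAAT-binding factor, and MIR30C2 on the minus strand at chr6:71377003-71377025, with no other gene listed around it. The card cannot tell which gene a mature miR-26a or miR-30c came from. No other assay of the card carried either printed seed among the 305 names that matched a sequence. MiR-30b was not among these names, so that its seed was not compared.

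All 4 members were detected in all 7 lines. The measure is the threshold cycle (Ct), the PCR cycle in which a well becomes bright enough to be scored; more RNA gives a lower Ct, and 1 cycle is a factor of 2 at full efficiency. After quantile normalization, which gives the cards a common distribution of Ct, the mean over the 7 lines was 24.84 ± 0.39 (SD, n = 7) for miR-30b, 25.08 ± 0.38 for miR-30c, 27.96 ± 0.42 for miR-26a and 28.60 ± 0.17 for miR-26b. The ranges of miR-30b (24.27 to 25.21) and miR-30c (24.45 to 25.47) overlapped, and those of miR-26a (27.37 to 28.32) and miR-26b (28.38 to 28.78) lay next to each other without overlap. Assays differ in efficiency, so that this order is one of Ct and not of molecules. Among the 377 microRNAs of a card, ranked from the lowest raw Ct, miR-30b stood between places 14 and 22, miR-30c between 16 and 24, miR-26a between 43 and 56, and miR-26b between 57 and 63. These levels bear on why the families were picked and are given without a test. Over the 7 lines, 10.4% of the 135 microRNAs detected in all lines had a smaller SD than miR-26b, whereas the SDs of miR-26a, miR-30b and miR-30c were nearer to the median of 0.43, with 48.1%, 40.7% and 37.8% below them.

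After quantile normalization and for raw Ct, miR-26a, miR-30b and miR-30c had a higher Ct, hence less RNA, in every L1Mic-R2 line than in any L1-R2 line, and miR-26b did not. Relative to the control RNA U6 the groups parted for all 4 members (17.1% of all microRNAs tested did, in this direction), though for miR-26b by only 0.05 cycles. Relative to the control RNAs RNU44 and RNU48 they parted for 0 of the 4 (2.21% of all), with miR-30c turning from -0.62 to 0.03 on the log2 scale. After quantile normalization, the differences of these 3 were between 0.62 and 0.75 cycles, and 0 of the 4 members passed an adjusted p of 0.05 in limma, where 9 of the 181 microRNAs tested did (4.97%, and 1.66% in the lower direction). At an unadjusted p under 0.05, 3 of the 4 passed, as did 19.3% of all microRNAs in either direction and 9.94% in this direction. The groups did not overlap, with L1Mic-R2 lower, for 3 of the 4 members and for 10.5% of the microRNAs tested; for raw Ct, the same 3 members parted, against 13.8%. The members were chosen with results of these data known, so that these counts are no independent evidence about the families. Fewer microRNAs were detected at a Ct below 38 in L1Mic-R2 (160 to 172 per line) than in L1-R2 (172 to 184). Of the 384 wells of a card, controls included, 195 to 207 were Undetermined in L1Mic-R2 against 181 to 196 in L1-R2. The part of these differences in the members' higher Ct was not tested. In RNA from whole cultures, fewer cells that make a microRNA and less of it per cell cannot be told apart.

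Among the L1-R2 lines, miR-26a crossed the threshold at a raw Ct of 27.08 (4T), 27.54 (3T) and 27.54 (8T). Among the L1Mic-R2 lines, it crossed at 28.44 (2T), 28.26 (3T), 28.24 (7T) and 29.00 (8T). Between the groups, the nearest pair of lines (8T of L1-R2, 7T of L1Mic-R2) was 0.70 cycles apart. Quantile normalization put the L1-R2 mean at 27.53 ± 0.22 (SD, n = 3) and the L1Mic-R2 mean at 28.28 ± 0.07 (SD, n = 4). The log2 fold change, with L1-R2 as the reference, was thus -0.75 (standard error 0.16, 95% interval -1.14 to -0.36), or 1.68-fold less. Its adjusted p from limma was 0.0545. Of the L1Mic-R2 lines, 3 held place 56 on their cards and so received one common value of 28.32. The SD of the L1Mic-R2 lines was 0.36 for raw Ct and 0.09 for Ct minus U6. By place, which needs no normalization, miR-26a ranked 43 to 49 in L1-R2 and 54 to 56 in L1Mic-R2.

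Among the L1-R2 lines, miR-26b crossed the threshold at a raw Ct of 28.16 (4T), 28.29 (3T) and 28.55 (8T). Among the L1Mic-R2 lines, it crossed at 28.89 (2T), 28.77 (3T), 28.41 (7T) and 29.00 (8T). L1Mic-R2 line 7T fell among the L1-R2 lines, so that the groups overlapped. Quantile normalization put the L1-R2 mean at 28.61 ± 0.15 (SD, n = 3) and the L1Mic-R2 mean at 28.59 ± 0.20 (SD, n = 4). The log2 fold change was thus 0.03 (standard error 0.18, adjusted p = 0.939 from limma). With 3 lines against 4, its 95% interval ran from -0.40 to 0.46. This interval is not a limit of detection: in the same fit, miR-26a at -0.75 did not pass the adjusted threshold. Which size of change would pass was not tested. The places of miR-26b on the cards, 59 to 63 in L1-R2 and 57 to 63 in L1Mic-R2, overlapped as well.

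Among the L1-R2 lines, miR-30b crossed the threshold at a raw Ct of 24.20 (4T), 24.63 (3T) and 24.21 (8T). Among the L1Mic-R2 lines, it crossed at 25.16 (2T), 25.10 (3T), 25.13 (7T) and 25.52 (8T). The gap between the groups, 0.47 cycles between both lines 3T, was wider than the SD of either group. Quantile normalization put the L1-R2 mean at 24.45 ± 0.18 (SD, n = 3) and the L1Mic-R2 mean at 25.14 ± 0.09 (SD, n = 4). The log2 fold change was thus -0.69 (standard error 0.15, 95% interval -1.06 to -0.31, adjusted p = 0.0598 from limma), or 1.61-fold less. MiR-30b ranked 14 to 16 in L1-R2 and 20 to 22 in L1Mic-R2.

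Among the L1-R2 lines, miR-30c crossed the threshold at a raw Ct of 24.47 (4T), 24.96 (3T) and 24.43 (8T). Among the L1Mic-R2 lines, it crossed at 25.40 (2T), 25.09 (3T), 25.46 (7T) and 25.63 (8T). Both lines 3T were the closest, 0.13 cycles apart, which is less than the SD of either group. Quantile normalization put the L1-R2 mean at 24.72 ± 0.25 (SD, n = 3) and the L1Mic-R2 mean at 25.34 ± 0.17 (SD, n = 4). The log2 fold change was thus -0.62 (standard error 0.19, 95% interval -1.08 to -0.16, adjusted p = 0.121 from limma), or 1.54-fold less. MiR-30c ranked 16 to 18 in L1-R2 and 21 to 24 in L1Mic-R2. The plot of Ct by line sets the 4 members side by side, before and after normalization.

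**Figure D1:**
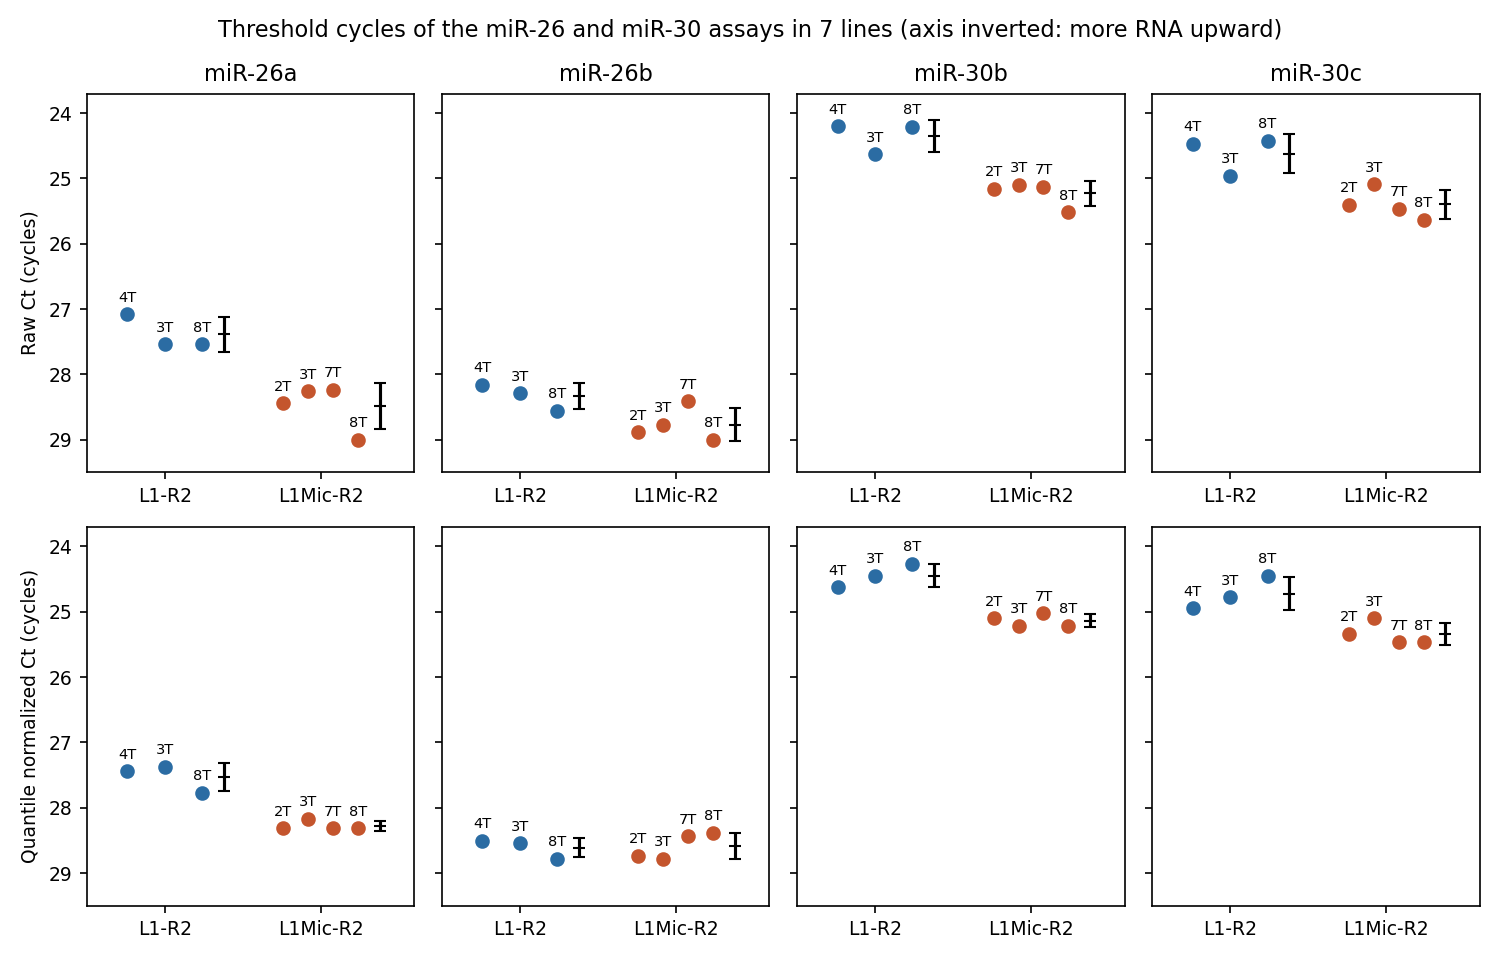
Raw Ct (upper row) and quantile normalized Ct (lower row), in cycles on an inverted axis, of miR-26a, miR-26b, miR-30b and miR-30c in the 3 L1-R2 lines (blue) and the 4 L1Mic-R2 lines (orange). Each point is 1 line with its number, and the black mark is the group mean with its SD. The groups part for miR-26a, miR-30b and miR-30c and overlap for miR-26b in both rows.

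The sizes moved with the RNA that the Ct was set against. Relative to U6, a small nuclear RNA that is common as a control, the groups overlapped for none of the 4 members, where they parted in this direction for 17.1% of the microRNAs tested, and miR-26a passed the adjusted threshold (log2 fold change -1.04, standard error 0.16, adjusted p = 0.0245 from limma; 3.87% of all were called lower). For miR-26b on the U6 scale, the closest lines of the groups were 0.05 cycles apart, less than the SD of L1-R2 (0.28) or L1Mic-R2 (0.17). Its adjusted p from limma was 0.341. Relative to the average Ct of the 135 microRNAs found in every line, miR-26a passed as well (-0.86, standard error 0.18, adjusted p = 0.0463 from limma), where 2.76% of all were called lower. Relative to the mean of RNU44 and RNU48, small nucleolar RNAs that are also used as controls, the groups overlapped for all 4 members (2.21% of all microRNAs parted in the lower direction), and the log2 fold changes were -0.29 for miR-26a, 0.37 for miR-26b, -0.08 for miR-30b and 0.03 for miR-30c, with adjusted p of 0.665 or more. These 2 controls themselves had a higher average Ct in L1Mic-R2, as the members did for raw Ct, and differed between the lines. RNU44 averaged 25.58 over the L1Mic-R2 lines against 24.69 over the L1-R2 lines, with SDs of 0.34 and 0.96. RNU48 averaged 20.55 against 19.83, with SDs of 0.39 and 0.88, and U6 16.38 against 16.32, with SDs of 0.28 and 0.32. Subtracting the mean of RNU44 and RNU48 moves every microRNA by the shift of that mean between the groups. The change of the members' values from those for raw Ct is thus this shift by construction. Why these 2 controls differed between the groups was not tested. RNU48 had a Ct of 18.81 in L1-R2 line 4T and between 20.07 and 20.97 in the other 6 lines, and RNU44 23.67 in that line and between 24.82 and 25.97 in the others, whereas U6 spanned 0.80 cycles over the 7 lines. Without L1-R2 line 4T, the values relative to RNU44 and RNU48 were -0.65, -0.05, -0.51 and -0.41 in the order above, with adjusted p of 0.216 or more (a setting added after the data had been seen). The median log2 fold change of the 181 microRNAs moved too, from 0.06 after quantile normalization to -0.25 without normalization, -0.19 against U6 and 0.56 against RNU44 and RNU48. Relative to this median, miR-26a was at -0.81 after quantile normalization and at -0.85 for raw Ct. The scales that subtract a control or a mean move all microRNAs of a card alike, so that they give the raw value again by construction. After quantile normalization and for raw Ct, the same difference was -0.75 and -0.63 for miR-30b, -0.68 and -0.53 for miR-30c, and -0.03 and -0.19 for miR-26b.

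**Figure D2:**
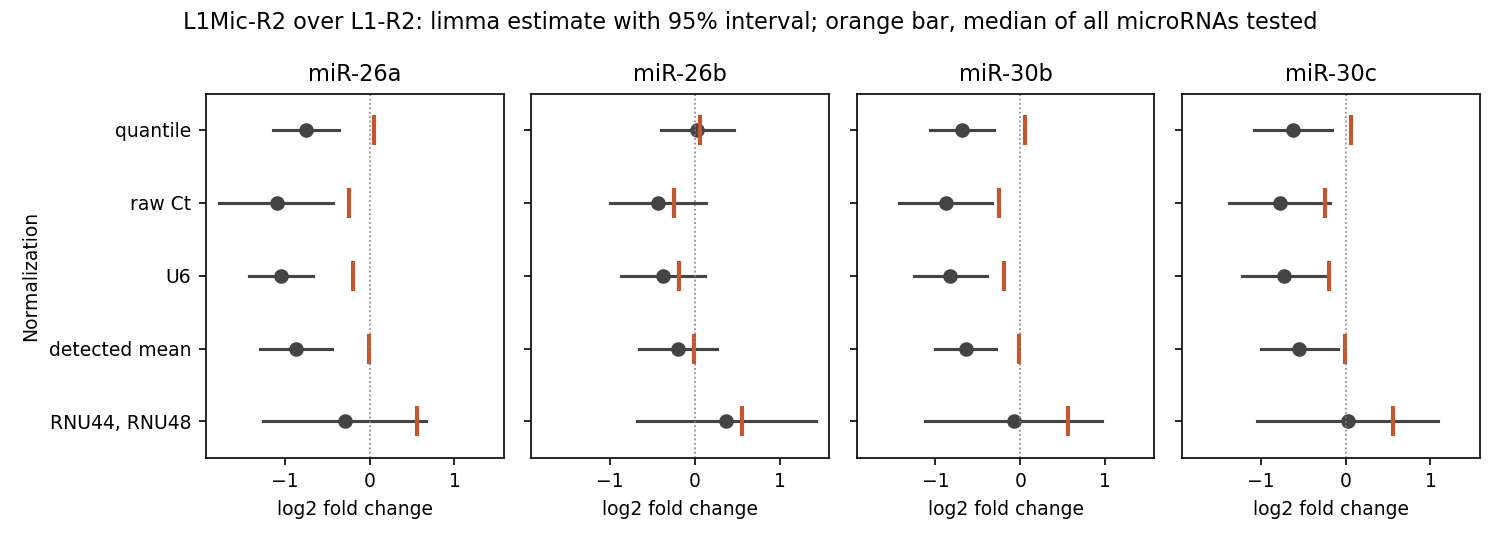
Log2 fold change (horizontal axis; L1-R2 is the reference) on 5 scales, raw Ct and 4 normalizations (vertical axis), for each member, as the limma estimate (point) with its 95% interval (line). The orange bar is the median of the 181 microRNAs tested on that scale; miR-26a, miR-30b and miR-30c lie to its left, which the 4 scales other than quantile share by construction, and miR-26b lies near it.

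A difference between assays of a card needs no normalization. The raw Ct of miR-26a minus that of miR-26b was -1.08 (4T), -0.75 (3T) and -1.01 (8T) among the L1-R2 lines. Among the L1Mic-R2 lines, it was -0.45 (2T), -0.52 (3T), -0.18 (7T) and -0.002 (8T). The miR-26a assay thus ran ahead of the miR-26b assay by 0.75 cycles or more in every L1-R2 line and by 0.52 or less in every L1Mic-R2 line, and the mean moved by 0.66 cycles, from -0.95 ± 0.17 (SD, n = 3) to -0.29 ± 0.24 (SD, n = 4). Such a change was common on these cards: over the 9045 pairs of microRNAs detected in all lines, the median absolute change was 0.64 cycles, and for 26.5% of the pairs the groups did not overlap. For miR-30b minus miR-30c, the L1-R2 lines averaged -0.27 ± 0.06 (SD, n = 3) and the L1Mic-R2 lines -0.17 ± 0.15 (SD, n = 4). All 7 values lay between -0.34 and 0.01, the groups overlapped, and the change of 0.10 cycles was below the SD of the L1Mic-R2 lines. The mean of the miR-26 assays minus the mean of the miR-30 assays came to 3.38 ± 0.32 (SD, n = 3) for L1-R2 and 3.31 ± 0.19 (SD, n = 4) for L1Mic-R2, with overlap. No p is given for these values, since they were made from members chosen with results known.

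**Figure D3:**
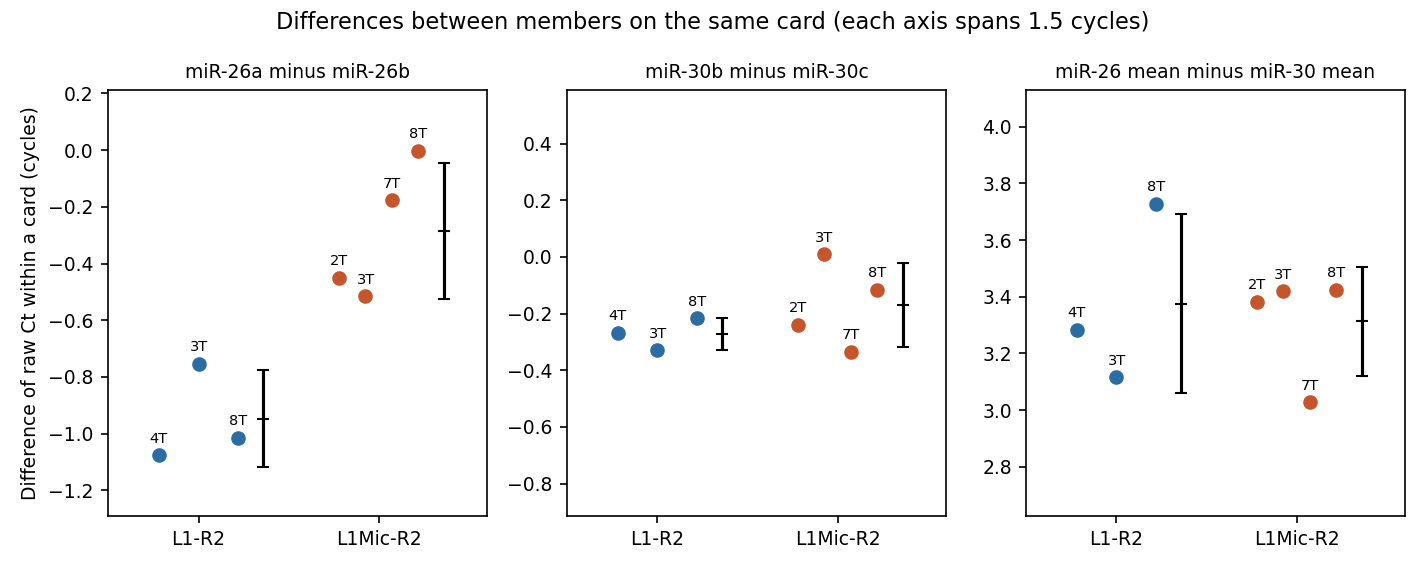
Difference of raw Ct between members on the same card, in cycles, for the 3 L1-R2 lines (blue) and the 4 L1Mic-R2 lines (orange). Each point is 1 line with its number, and the black mark is the group mean with its SD. The groups part for miR-26a minus miR-26b, from -0.95 to -0.29 on average, and overlap in the other panels.

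Likeness of 2 microRNAs was measured as the root mean square difference of their quantile normalized Ct over the 7 lines, after each had been centered on its own mean, among the 135 detected in all lines. The lines share their cards and the overall shift between groups, so that the values are descriptions without a test. MiR-30b and miR-30c were each other's nearest microRNA, at 0.16 cycles, and 0.907% of all pairs were closer. MiR-26a and miR-26b were 0.42 cycles apart, with 20.3% of all pairs closer, against a median of 0.68 over all pairs. Of the miR-30 assays, miR-30b was at 0.22 from miR-26a (2.48% of pairs closer) and miR-30c at 0.26 (4.57%). MiR-26a thus lay closer to both miR-30 members than to miR-26b, with which it shares its seed. The centered profiles keep the difference between the groups, so that this order in part restates the log2 fold changes. These were -0.75 for miR-26a, -0.69 for miR-30b and -0.62 for miR-30c, against 0.03 for miR-26b. The 3 nearest to miR-26a were miR-29c (0.22), miR-30b and miR-660 (0.24), those of miR-30b were miR-30c, miR-29c (0.18) and miR-598 (0.21), and those of miR-30c were miR-30b, miR-138 (0.23) and miR-29c (0.25). Log2 fold changes were -0.48 for miR-29c, -0.35 for miR-660, -0.36 for miR-598 and -0.26 for miR-138. The nearest to miR-26b were miR-532-5p (0.12), miR-20a (0.12) and miR-106a (0.15), whose log2 fold changes were -0.11, -0.13 and 0.10.

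**Figure D4:**
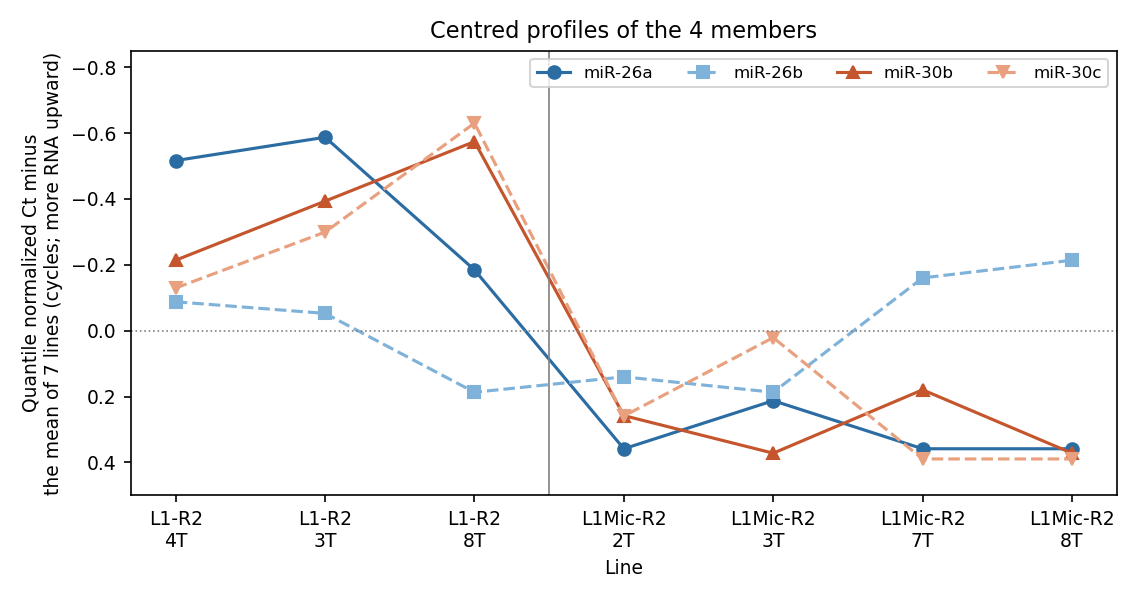
Quantile normalized Ct of each member minus its own mean over the 7 lines, in cycles on an inverted axis, by line; the vertical line parts the L1-R2 from the L1Mic-R2 lines. MiR-30b and miR-30c run closest together (root mean square difference 0.16 cycles), and miR-26b departs from miR-26a (0.42 cycles).

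Other microRNAs described as repressed by MYC were listed for context. All 17 were on the card, miR-22 and the p53 target miR-34a were Undetermined in all 7 lines, and 15 were tested. After quantile normalization 0 passed the adjusted threshold, 2 (miR-29c and miR-150) passed an unadjusted p of 0.05 in the lower direction, as did 9.94% of all microRNAs tested. A negative log2 fold change was found for 12 of the 15 and for 83 of all 181, with medians of -0.24 and 0.06. This median was -0.50 for raw Ct and turned positive, 0.30, with RNU44 and RNU48, where 4 of the 15 were negative and the median of all microRNAs was 0.56. The largest absolute values were those of miR-150, a lymphocyte microRNA (-3.35, standard error 1.31, adjusted p = 0.22 from limma), and let-7b (-0.84, standard error 0.79, adjusted p = 0.598 from limma). MiR-150 was detected in 5 of the 7 lines, so that its size depends on the Ct of 40 that stands for Undetermined wells. Relative to U6, where 8 of all 181 microRNAs passed, 1 of the 15 did. This was miR-146a, a microRNA known to dampen NF-κB signaling (-0.83, standard error 0.16, adjusted p = 0.039 from limma), whose log2 fold change after quantile normalization was 0. Of the 6 members of the miR-17-92 cluster, which MYC is known to induce, 1 passed the adjusted threshold, against 4.97% of all microRNAs, and the median was 0.29 against 0.06. The log2 fold change was negative for 2 of the 6 after quantile normalization and for 3 of the 6 for raw Ct. For raw Ct the medians were 0.11 and -0.25, and with RNU44 and RNU48 0.91 and 0.56, with 0 of the 6 passing on either scale. The member that passed after quantile normalization was miR-18a, which rose by 1.72 on the log2 scale in L1Mic-R2 (limma standard error 0.31, adjusted p = 0.0392). Its value was positive on every scale, from 1.32 for raw Ct to 2.12 with RNU44 and RNU48, though its adjusted p was 0.109 and 0.0664 on these. Scales that subtract a control or a mean differ from raw Ct by a constant common to all microRNAs. They thus give no separate support, and a list median keeps its distance to the median of all by construction. The next largest value in the cluster after quantile normalization was that of miR-19a (0.41, standard error 0.23, adjusted p = 0.396 from limma). Whether MYC has a part in the values of either list was not tested.

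Each card held 384 wells with 381 assays. Card numbers ran from 1 to 3 for L1-R2 and from 4 to 7 for L1Mic-R2, so that group and card order cannot be told apart. MDA-MB-435 is widely held to be of melanocyte lineage. Of 5 microRNAs of that lineage on the card, 3 were detected in all lines, and the summed level of the 5, expressed as a Ct, was between 24.90 and 25.08 in L1-R2 and between 25.36 and 26.12 in L1Mic-R2. The melanocyte microRNA miR-211 was detected in 5 of the 7 lines (log2 fold change -6.57, again dependent on the Ct of 40, standard error 2.97, adjusted p = 0.267 from limma), and miR-509-3-5p fell by 2.71 in L1Mic-R2 (standard error 0.53, adjusted p = 0.0392 from limma). Of the 6 blood and endothelial microRNAs (miR-150 is among them), miR-451 and miR-142-5p were Undetermined everywhere, and the summed Ct was between 32.41 and 33.77 in L1-R2 and between 28.78 and 31.73 in L1Mic-R2, while the values of its members differed in sign. The log2 fold change was 3.44 for the endothelial miR-126 (limma standard error 0.98, adjusted p = 0.104) and 3.07 for miR-223 (adjusted p = 0.245), whereas miR-150 was at -3.35, and miR-142-3p, not tested, had a mean Ct of 37.62 in L1-R2 and was Undetermined in L1Mic-R2. The 7 epithelial microRNAs had a summed Ct from 29.60 to 32.91 in L1-R2 and from 31.62 to 33.80 in L1Mic-R2, with miR-205 Undetermined in all lines and miR-141 below 38 in none. All 4 that could be tested had a negative log2 fold change, the largest being those of miR-429 (-1.80, adjusted p = 0.572 from limma) and miR-200b (-1.39, adjusted p = 0.176 from limma). Of 6 fibroblast and muscle microRNAs, miR-143, miR-145 and miR-214 were Undetermined in all lines, and 3 of the 7 lines had any. The member that could be tested, miR-199a-3p, was at 0.39 (adjusted p = 0.895 from limma). The part of these markers in the differences of the members was not tested.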

How the data were processed

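TaqMan Human MicroRNA Array A cards were run on RNA of 7 cell lines, 1 card per line. The authors deposited the average threshold cycle (Ct), a log2 scale of RNA amount, read with SDS RQ Manager at a threshold of 0.3, with 40 standing for Undetermined wells. The labels name other chemistry (SYBR) than the methods (TaqMan). Groups and line numbers came from the labels; file names exchange L1-R2 lines 3T and 4T. Here, quantile normalization was run over 381 assays and 7 cards, and 40 minus Ct was fitted with limma 3.58.1 (lmFit, eBayes; R 4.3.3) over the 181 of 377 microRNAs with a raw Ct below 38 in at least 3 lines, with Benjamini-Hochberg adjustment over all 181 and a threshold of 0.05. Quantile normalization gives assays of equal rank the same value and removes any shift common to a card. The p-values measure the spread between lines. On simulated data with 20 of 181 microRNAs changed by 3 on the log2 scale, 74.3% were recovered over 50 runs, and 4.99% of calls were false. Smaller changes were not simulated.

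Named were the 4 members, the 3 nearest microRNAs of each, members of the context lists that passed the adjusted threshold, the 2 with the largest absolute log2 fold change in each of the 2 context lists, and the control RNAs. Markers and miR-146a are named for their counts. The members and lists were chosen with earlier results of these data known. Alternatives were other normalizations, Ct limits, filters and tests, a replicate block and leaving out each line. Mature sequences and loci came from RefSeq (GRCh38.p14). Cards give no read depth.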

Additional observations from a re-analysis of the deposited data

Results flagged for a closer look

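Among 11 sets of values in the 4 L1Mic-R2 lines, 3 held a line far from the others, measured as the gap of the extreme line to its neighbor over the range of the group. Chance gives about 1 such set in 20, the sets share lines and assays, and the 3 L1-R2 lines were too few to be checked. Line 8T had a raw miR-30b Ct of 25.52, while the rest lay between 25.10 and 25.16 (gap over range 0.856), and after quantile normalization the ratio was 0.407. The quantile normalized Ct of miR-26a was 28.17 in line 3T against 28.32 in the others, which tie at place 56 (ratio 1). The mean of the miR-26 assays minus that of the miR-30 assays was 3.03 for line 7T, with the rest between 3.38 and 3.43 (ratio 0.893).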

How the results depend on the processing

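MiR-26a and miR-30b had a negative log2 fold change under every alternative run, and their adjusted p fell below 0.05 under 5 and 3 of them. Limits on Ct, filters and other tests left the log2 fold changes of the members as they were, so that no sign could turn there. In these settings only the estimate of the error or the set of microRNAs tested differed. For miR-26a the log2 fold change was -1.04 with U6 (adjusted p from limma 0.0245) and -0.86 with the mean of microRNAs detected in all lines (0.0463), and it was -0.75 with Ct limited to 35 (0.0304), over the 135 found in every line (0.0226) and with trended, robust limma (0.0272). For miR-30b it was -0.69 under the last 3 of these (0.0304, 0.0265 and 0.0203), and for miR-30c -0.62 with trended, robust limma (0.0381). Of all 181 microRNAs tested, 8 passed with U6, 10 with the detected mean, 8 with Ct limited to 35 and 21 with trended, robust limma. Over those found in every line, 14 of 135 passed. MiR-30c turned to 0.026 with RNU44 and RNU48. MiR-26b, near 0, turned to -0.43 for raw Ct, -0.38 with U6, -0.20 with the detected mean and -0.053 with RNU44 and RNU48 without L1-R2 line 4T (a setting added once the data had been seen). The cause was not tested.

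Leaving out each line in turn gave -0.91 to -0.69 for miR-26a, -0.82 to -0.61 for miR-30b, -0.75 to -0.45 for miR-30c and -0.058 to 0.095 for miR-26b, with adjusted p from limma of 0.0771 or more. MiR-26b turned negative without L1-R2 line 8T (-0.058), L1Mic-R2 line 7T (-0.026) or L1Mic-R2 line 8T (-0.043). The within-card shifts ran from 0.57 to 0.76 for miR-26a minus miR-26b, from 0.04 to 0.16 for miR-30b minus miR-30c and from -0.19 to 0.11 for the family means.

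The count of microRNAs passing, 9 of 181, was 14 among those detected in all lines and 21 with trended, robust limma. Relative to RNU44 and RNU48 it was 0 (37 had an unadjusted p under 0.05). It was 0 without a filter (36), 0 with the methods' two-tailed Student test after adjustment (35) and 0 with the replicate block (19). Without single lines it was 0 to 4: 2 without L1-R2 line 4T, 0 without 3T and 0 without 8T of that group, and 0 without L1Mic-R2 line 2T, 1 without 3T, 4 without 7T and 3 without 8T of that group (28 to 39 unadjusted). Line numbers 3 and 8 occur in both groups but share only a number (correlations of deviations -0.22 and 0.26 over 135 microRNAs). Under a replicate block by line number, with 1 residual degree of freedom, the values were -0.67 for miR-26a, 0.08 for miR-26b, -0.86 for miR-30b and -0.67 for miR-30c, with adjusted p from limma of 0.501 or more, and the within-card shifts were 0.63, 0.22 and 0.001. Numbered as in the file names, also added once the data had been seen, they were -0.64, 0.06, -0.77 and -0.59.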
